A study of Mus musculus with 20 samples.

Results

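The genes described here encode ionotropic glutamate receptors, the ion channels that glutamate opens, and 4 families of synaptic adhesion proteins. Members were chosen by symbol, as the rows of the gene table that begin with Gria, Grik, Grid or Grin and a digit, or with Slitrk, Lrrtm, Nlgn or Nrxn and a digit. There were 35 of them among 23402 rows. They comprise 18 receptor subunits (4 of the AMPA class, 5 kainate, 7 NMDA and 2 delta), 6 SLITRK, 4 LRRTM, 3 neuroligin and 3 neurexin genes. The remaining member matched by its name and encodes a scaffold protein. Which members were tested was set by the mean FPKM (fragments per kilobase of gene, scaled to the mapped fragments of the library) over all 20 libraries. Of the 35, 7 reached 0.5 and were tested, and each of these 7 averaged above 0.5 in both groups. The grouping itself was made with earlier results of these data known.

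The tumours were grown under the skin of mice from MC38, a colon adenocarcinoma line. P.T.ATBx is the name of the 10 libraries whose tumours had peri-tumoral ATBx, and Control that of the 10 with vehicle. The agent behind ATBx, its dose and schedule, and the strain and age of the mice do not appear in the labels. The labels also do not tie libraries to separate animals, and p-values then reflect only how these samples vary, which may be technical. The source is whole tumour tissue, although the cell type label names cancer cells only, and in such bulk RNA fewer cells of a type and less RNA per cell cannot be told apart.

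AMPA, kainate and NMDA receptors assemble from subunits around a central pore and carry fast excitatory transmission in the brain, while delta receptors act mainly as adhesion and signalling proteins. Neuroligins and LRRTMs on the receiving cell bind neurexins on the sending cell, and SLITRKs bind receptor tyrosine phosphatases of the LAR type. All are studied chiefly in neurons, and single members are known outside the nervous system.

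Relative depth, read from the spacing of low values, ran from 0.862 to 1.09 in P.T.ATBx and from 0.818 to 1.27 in Control libraries, and read totals are unknown. Its median was 0.962 in P.T.ATBx and 1.075 in Control. The counts of libraries above 0 given below were not adjusted for this difference in depth. Summed FPKM ran from 559717 to 700925 in P.T.ATBx and from 556770 to 752782 in Control. Neuron markers were mixed: 9 of 22 stayed under 0.1 FPKM in every library, among them the vesicle fusion gene Snap25, listed at 0 in 9 P.T.ATBx and 9 Control libraries. The 4 that passed the level filter were Tubb3, Map2, Gap43 and Uchl1, with Map2 at 1.84 to 2.81 FPKM in P.T.ATBx and 1.52 to 2.27 in Control, and Uchl1 averaging 0.887 ± 0.262 FPKM in P.T.ATBx and 1.01 ± 0.136 FPKM in Control (SD, n = 10 each). The library Control 3 stood apart: it was the highest of all 20 in adipocyte markers (3108 FPKM summed, where the Control median was 404) and in simple epithelial markers (199, where the Control median was 41.8), so results are also given without it. The summed neuron list (53.6 to 74.9 FPKM in P.T.ATBx, 59.6 to 87.9 in Control) was carried by the tubulin gene Tubb3, at 43.5 to 66.8 and 50.8 to 79.2 FPKM. The Schwann cell regulator Sox10 was at 0.108 to 0.735 FPKM in P.T.ATBx and 0.02 to 0.893 in Control.

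The 4 members with the highest log2 fold changes were Slitrk5, Slitrk6, Gria4 and Grik2. All but Slitrk6 reached an adjusted p under 0.05 (limma). The stretches of these 4 before the start, as given in the promoter table, are shown. Each is 250 bases, 5′ to 3′ on the gene's strand, from RefSeq on GRCm38.p6, in lower case with matches to the searched motifs in capitals. The windows of Grik2 and Slitrk5 lie inside the span RefSeq gives for the whole gene, which reaches further upstream. The window of Slitrk6 lies partly inside its span, which reaches to 110755204.
Grik2, chr10:49788755-49789004, minus strand: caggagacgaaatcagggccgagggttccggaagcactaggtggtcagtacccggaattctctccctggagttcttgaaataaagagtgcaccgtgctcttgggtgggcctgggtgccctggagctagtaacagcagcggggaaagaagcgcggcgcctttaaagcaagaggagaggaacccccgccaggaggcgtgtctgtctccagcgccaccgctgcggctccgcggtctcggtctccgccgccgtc
Gria4, chr9:4796235-4796484, minus strand: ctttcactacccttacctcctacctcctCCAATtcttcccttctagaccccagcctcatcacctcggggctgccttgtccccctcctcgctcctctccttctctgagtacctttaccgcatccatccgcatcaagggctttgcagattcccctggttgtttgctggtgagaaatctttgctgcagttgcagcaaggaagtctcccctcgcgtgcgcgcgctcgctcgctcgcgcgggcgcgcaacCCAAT
Slitrk5, chr14:111675777-111676026, plus strand: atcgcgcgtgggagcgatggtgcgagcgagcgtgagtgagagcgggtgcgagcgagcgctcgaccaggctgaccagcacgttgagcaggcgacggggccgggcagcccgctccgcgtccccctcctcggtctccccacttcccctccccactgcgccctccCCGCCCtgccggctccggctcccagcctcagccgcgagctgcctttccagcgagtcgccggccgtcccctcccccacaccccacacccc
Slitrk6, chr14:110755150-110755399, minus strand: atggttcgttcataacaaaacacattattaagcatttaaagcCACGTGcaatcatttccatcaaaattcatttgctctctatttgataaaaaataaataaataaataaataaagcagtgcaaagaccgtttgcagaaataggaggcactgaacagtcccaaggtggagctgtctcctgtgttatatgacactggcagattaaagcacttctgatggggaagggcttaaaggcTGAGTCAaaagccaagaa

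Of the 35 members, 22 had a promoter in that table. The motifs searched on both strands, with the share of 32851 promoters of the same length that hold each, were TATAAA (12.4%), GGGCGG (32.7%), CCAAT (33.8%), CACGTG (6.02%), TGACTCA (4.46%), TGACGTCA (1.55%) and TTCAGCACC, the left part of the REST repressor element (0.301%). The matches did not overlap each other. Gria4 held CCAAT at 222 and at 5 bases before the start, and Slitrk5 held GGGCGG on the opposite strand at 89 bases. Slitrk6 held CACGTG at 208 bases and TGACTCA on the opposite strand at 18 bases, and Grik2 held no match in this window. The TGACTCA match of Slitrk6 lies in the part of its window inside the RefSeq span. No motif was shared among the 4. Base composition differed too: 74.8% G or C in Slitrk5, 62.8% in Grik2, 58.8% in Gria4 and 37.2% in Slitrk6, where the median of all promoters was 52.4%.

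Grik2 and Nlgn2 supplied most of the RNA of these genes. They made up 66.8% of the FPKM summed over the members and all libraries, and the 7 tested genes 94.4%. The summed level of all 35 was 31.9 ± 1.81 FPKM in P.T.ATBx and 27.4 ± 2.70 FPKM in Control (SD, n = 10 each), with ranges of 29.8 to 35.2 and 22.4 to 31.1 FPKM that overlap. Grik2, the highest, ranked 6782nd of 12788 tested rows by mean level.

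**Figure D1:**
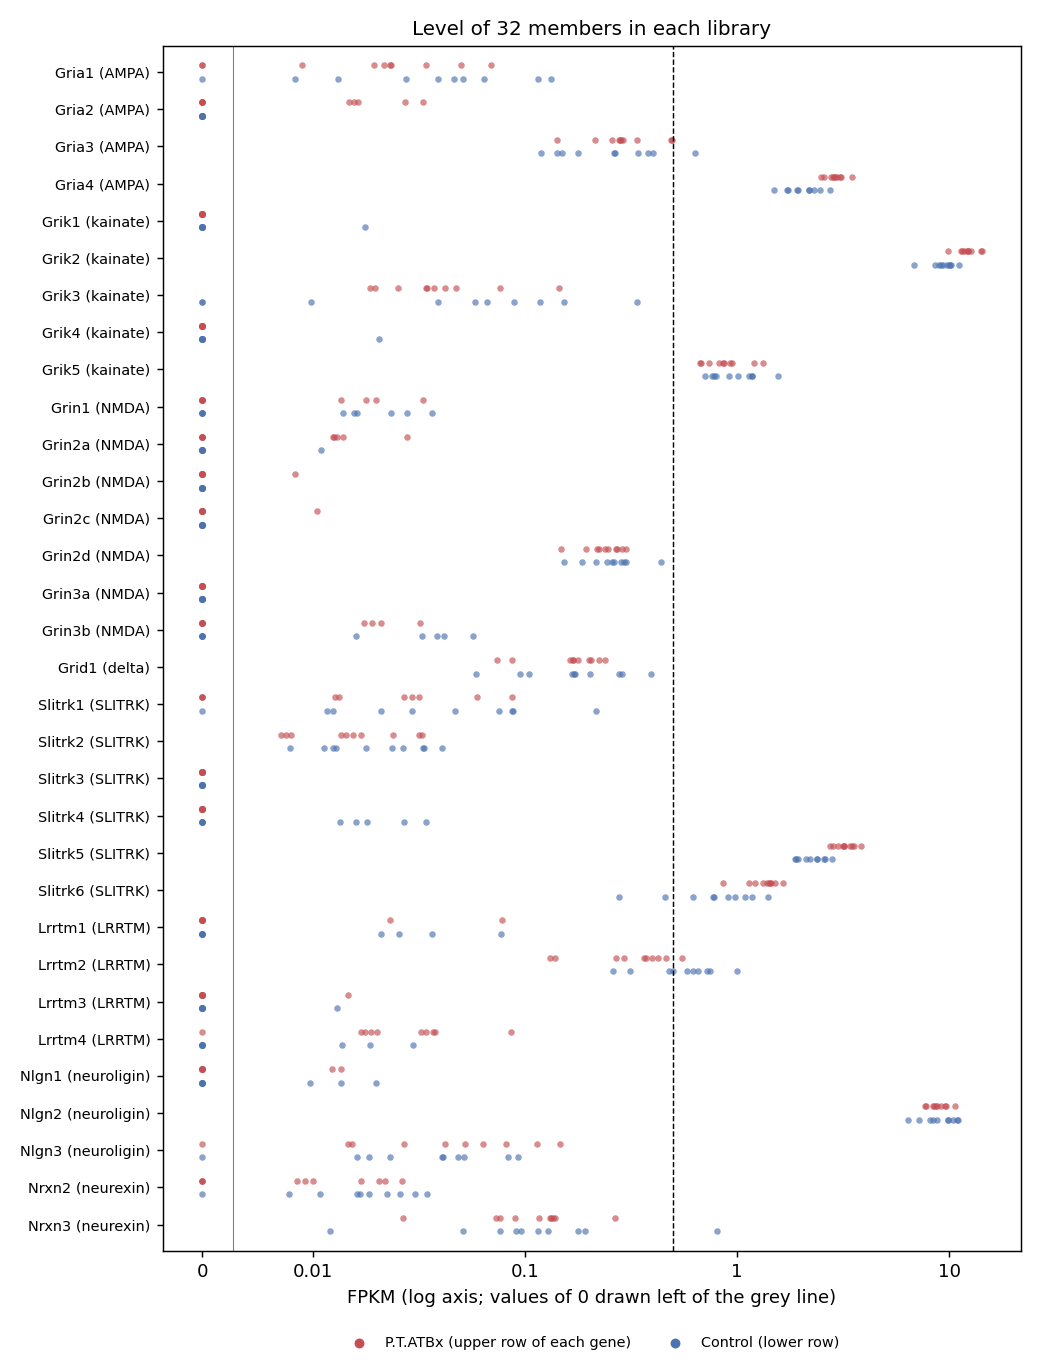
FPKM of 32 of the 35 genes on a log axis, 1 point per library, with P.T.ATBx libraries above and Control libraries below for each gene, and values of 0 left of the grey line. The dashed line marks 0.5 FPKM, and 6 of the genes drawn have means above it, with most of the others far below.

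Of the 7 tested members, 3 were higher after P.T.ATBx and 0 lower at an adjusted p under 0.05 (limma on log2(FPKM + 1), Benjamini-Hochberg over 12788 rows). Over all rows tested 0.461% were called higher and 0.383% lower, 59 and 49 rows, and 20 and 29 rows where every library was rescaled to a common FPKM sum. In 0 members did all P.T.ATBx libraries lie on 1 side of all Control libraries, beside 0.0704% of all rows with every P.T.ATBx library above and 0.0626% with every one below. The 3 were Slitrk5, Gria4 and Grik2, each with a mean 1.3 to 1.42 times the Control mean. The genes were grouped with results of this comparison in view, so this count is a description and supports nothing further. The 7 had a median log2 fold change of 0.35, beside 0.00 over all rows, with 5 positive and 2 negative values. At an unadjusted p under 0.05, 13.6% of all rows passed, and 4 of the 7, the fourth being Slitrk6.

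Among the kainate subunits, Grik2 encodes the pore-forming GluK2 and lies at chr10:49093680-49790161 (GRCm38). It ranged from 9.88 through a median of 12.2 to 14.2 FPKM in P.T.ATBx libraries, against 6.84, 9.51 and 11.2 FPKM in Control libraries. All but P.T.ATBx 10 lay above the highest Control library, and Control 3 was the lowest of all 20. The means were 12.2 ± 1.27 FPKM in P.T.ATBx and 9.39 ± 1.16 FPKM in Control (SD, n = 10 each), and the log2 fold change was 0.35 (SE 0.07, 95% interval 0.21 to 0.49, adjusted p = 0.00965, limma). With every library rescaled to a common FPKM sum the adjusted p was 0.0650 (limma) at the same 0.35.

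Grik5 encodes GluK5, a high-affinity subunit that needs a pore-forming partner such as GluK2. Its values ran from 0.670 through 0.859 to 1.32 FPKM in P.T.ATBx and from 0.704 through 0.959 to 1.56 FPKM in Control. The groups overlapped almost fully, with a log2 fold change of -0.07 (95% interval -0.23 to 0.09, adjusted p = 0.748, limma). The other kainate genes were scarce. Grik3 averaged 0.0479 ± 0.0378 FPKM in P.T.ATBx and 0.0869 ± 0.102 FPKM in Control (SD, n = 10 each). Grik1 and Grik4 were above 0 in 0 P.T.ATBx libraries and 1 Control library each.

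The AMPA subunit gene Gria4 (GluA4, chr9:4417893-4796234) had values of 2.48, 2.88 and 3.48 FPKM at the lowest, median and highest P.T.ATBx library, against 1.48, 2.05 and 2.74 FPKM in Control. In this gene 8 P.T.ATBx libraries lay above every Control library, and 9 Control libraries lay below every P.T.ATBx one. Gria4 averaged 2.90 ± 0.281 FPKM in P.T.ATBx and 2.07 ± 0.382 FPKM in Control (SD, n = 10 each), and the log2 fold change was 0.35 (SE 0.07, 95% interval 0.22 to 0.49, adjusted p = 0.00700, limma). This call was lost on the common FPKM sum (log2 fold change again 0.35, adjusted p = 0.0619, limma) and without the 4 libraries highest in Rpph1 and Rmrp, P.T.ATBx 1 and 4 and Control 1 and 3 (log2 fold change 0.30, adjusted p = 0.0586, limma). Those abundant RNAs, of RNase P and RNase MRP, took 9.02% to 17.2% of summed FPKM in P.T.ATBx and 7.75% to 20.5% in Control.

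Gria3 (GluA3) was above 0 in every library, at 0.306 ± 0.110 FPKM in P.T.ATBx and 0.288 ± 0.159 FPKM in Control (SD, n = 10 each), a difference within the spread. Gria1 averaged 0.0249 FPKM in P.T.ATBx and 0.0495 in Control. Gria2, whose edited subunit makes AMPA receptors impermeable to calcium, was above 0 in 5 P.T.ATBx libraries and in 0 Control libraries. Counting in steps of the lowest value, those were about 7 fragments in all, so Gria2 was at the limit of what this depth shows, and in a fit without the level filter its adjusted p was 0.436 (limma).

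NMDA receptor genes were nearly silent. Grin1 encodes the subunit that every NMDA receptor needs, and it was above 0 in 4 P.T.ATBx and 6 Control libraries, reaching 0.0363 FPKM at most. Only Grin2d, an embryonic-type subunit, was above 0 in all 20 libraries, at 0.239 ± 0.0459 FPKM in P.T.ATBx and 0.262 ± 0.0770 FPKM in Control (SD, n = 10 each). By GENCODE M21 it overlaps Kdelr1 on the opposite strand over 5607 bases, and Kdelr1 was at 62.2 FPKM in P.T.ATBx and 60.4 in Control. Grin3b overlaps Tmem259, at 33.5 FPKM in P.T.ATBx and 31.8 in Control, in the same way. The RefSeq span of Grin2d stops at chr7:45871194, short of the GENCODE start of Kdelr1 at 45872772. The Grin2d overlap thus depends on which gene models were used. Whether reads were counted by strand is not stated, so the levels of Grin2d and Grin3b are uncertain. Grin2a, Grin2b, Grin2c and Grin3b were above 0 in 5, 1, 1 and 4 P.T.ATBx libraries and in 1, 0, 0 and 5 Control libraries, and Grin3a was listed at 0 throughout.

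Of the delta receptors, Grid1 averaged 0.170 ± 0.0536 FPKM in P.T.ATBx and 0.192 ± 0.102 FPKM in Control (SD, n = 10 each), a difference within the spread.

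**Figure D2:**
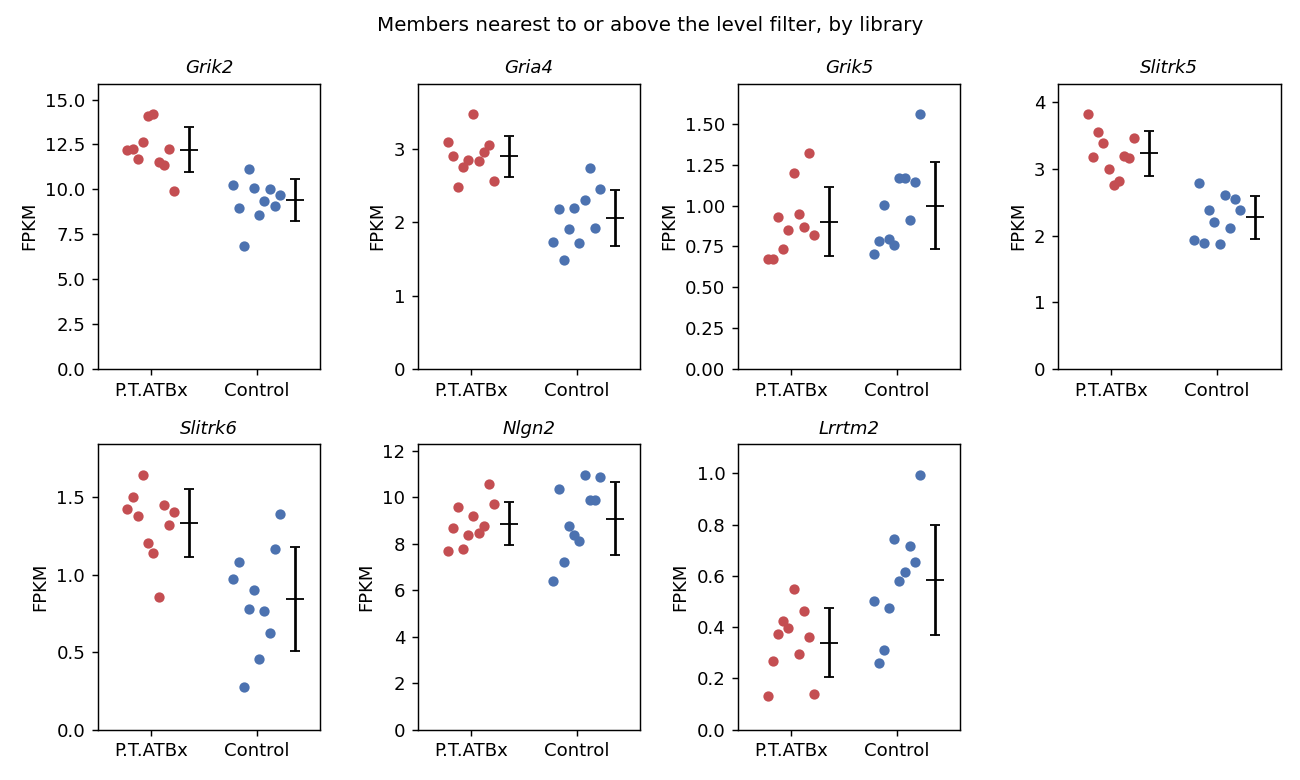
FPKM of 6 tested genes and of Lrrtm2, 1 point per library in replicate order, with the mean and SD of 10 libraries at the right of each group (axes start at 0). In Slitrk5, Grik2 and Gria4 8 or 9 of the 10 P.T.ATBx points lie above every Control point, while in Nlgn2 and Grik5 none does.

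Slitrk5, a transmembrane protein that shapes neurite growth and synapses, had the smallest p of the members and ranked 19th of 12788 rows by p. It lies at chr14:111675115-111683144 (GRCm38). Its lowest, median and highest values were 2.75, 3.19 and 3.82 FPKM in P.T.ATBx, against 1.87, 2.29 and 2.79 FPKM in Control. The groups overlapped only in that P.T.ATBx 6 lay just below Control 2. Slitrk5 averaged 3.23 ± 0.332 FPKM in P.T.ATBx and 2.27 ± 0.320 FPKM in Control (SD, n = 10 each), and the log2 fold change was 0.37 (SE 0.06, 95% interval 0.25 to 0.50, adjusted p = 0.00170, limma). Its call held in all 31 alternative fits, with adjusted p (limma) from 0.00103 to 0.0268.

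Slitrk6, known from the inner ear and eye, lies at chr14:110747338-110755204, 919.9 kb from Slitrk5. Its values were 0.855, 1.39 and 1.64 FPKM at the lowest, median and highest P.T.ATBx library, against 0.278, 0.841 and 1.39 FPKM in Control. Every P.T.ATBx library lay above the Control median and 5 above the Control maximum. With a log2 fold change of 0.36 (SE 0.09, 95% interval 0.16 to 0.55, adjusted p = 0.0715, limma) it did not pass, and it passed only on leaving out Control 10 (adjusted p = 0.0376, limma).

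The other SLITRK genes were low. Slitrk1, 1833 kb from Slitrk6, was at 0.0260 ± 0.0283 FPKM in P.T.ATBx and 0.0588 ± 0.0642 FPKM in Control (SD, n = 10 each). Slitrk2 was above 0 in every library but no higher than 0.0405 FPKM, and Slitrk3 was listed at 0 throughout. Slitrk4 was above 0 in 0 P.T.ATBx and 5 Control libraries, about 7 fragments in all (adjusted p = 0.435, limma, without the level filter).

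Nlgn2, the neuroligin of inhibitory synapses, was the second most abundant member and differed little. It ran from 7.67 through 8.71 to 10.6 FPKM in P.T.ATBx and from 6.41 through 9.32 to 10.96 FPKM in Control. The means were 8.87 ± 0.905 FPKM in P.T.ATBx and 9.08 ± 1.56 FPKM in Control (SD, n = 10 each), and the log2 fold change was -0.02 (95% interval -0.19 to 0.15, adjusted p = 0.949, limma). Its sign turned on leaving out any 1 of P.T.ATBx 1 or Control 2, 7 or 10, with log2 fold changes of 0.00 to 0.01. Nlgn1 and Nlgn3 averaged 0.0026 and 0.0555 FPKM in P.T.ATBx and 0.0043 and 0.0415 in Control.

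The neurexins, their binding partners, stayed low. Nrxn3 was at 0.118 ± 0.0631 FPKM in P.T.ATBx and 0.174 ± 0.227 FPKM in Control (SD, n = 10 each), where the Control SD exceeds the mean, and Control 3 reached 0.802 where the next Control library had 0.192. Nrxn2 averaged 0.0113 FPKM in P.T.ATBx and 0.0183 in Control.

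Lrrtm2, a leucine-rich repeat protein that binds neurexins, lay just outside the filter at a mean of 0.463 FPKM, next to Gria3 at 0.297. Of the members described, Grik5 at 0.950 and Slitrk6 at 1.09 lay nearest inside. Lrrtm2 ran from 0.131 through 0.367 to 0.550 FPKM in P.T.ATBx and from 0.260 through 0.598 to 0.994 FPKM in Control. No P.T.ATBx library reached the Control median, and the groups overlapped in range. Fitted without the filter its log2 fold change was -0.24 (SE 0.07, p = 0.00461, adjusted p = 0.173, limma). By GENCODE M21 Lrrtm2 lies wholly within Ctnna1 on the opposite strand, which was at 124 ± 10.0 FPKM in P.T.ATBx and 127 ± 14.98 FPKM in Control (SD, n = 10 each, adjusted p = 0.885, limma). Because counting by strand is not stated, the level of Lrrtm2 is uncertain.

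Lrrtm4 was above 0 in 9 P.T.ATBx and 3 Control libraries, about 17 and 4 fragments (adjusted p = 0.234, limma, without the filter). Lrrtm1 was above 0 in 2 P.T.ATBx and 4 Control libraries, and Lrrtm3 in 1 and 1.

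**Figure D3:**
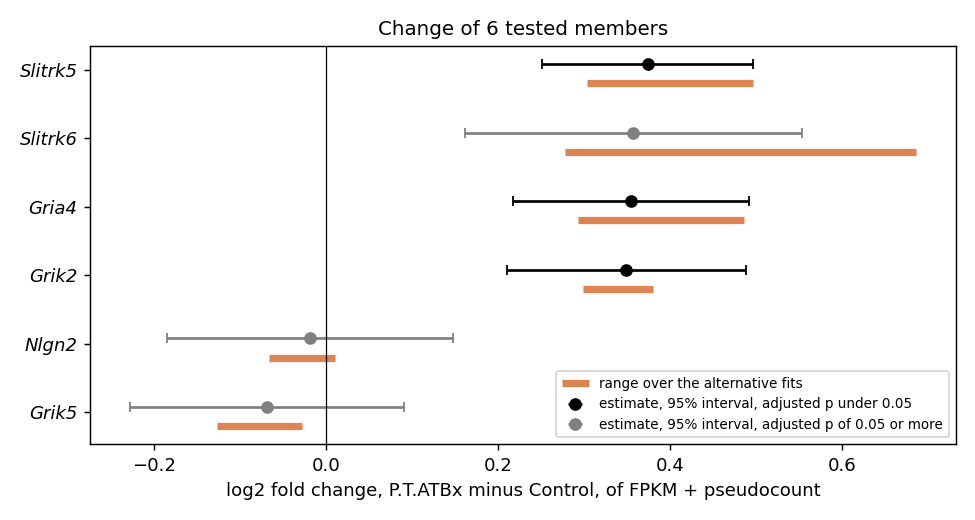
Log2 fold change, P.T.ATBx minus Control, of 6 tested genes with 95% intervals (points and bars, log2(FPKM + 1)), and the range over the alternative fits, among them a pseudocount of 0.1 (orange). Slitrk5, Slitrk6, Gria4 and Grik2 lie between 0.35 and 0.37 on this scale, and the intervals of Nlgn2 and Grik5 include 0. With a pseudocount of 0.1 the values were 0.69 for Slitrk6, 0.50 for Slitrk5, 0.49 for Gria4 and 0.38 for Grik2.

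Control 3 also stood out in several members. It was the lowest Control library for Grik2, Gria4 and Slitrk6, and the highest of all 20 libraries for Gria3, Nrxn3, Grik3, Slitrk1 and Gria1. Its Nrxn3 value was 3.02 times, its Slitrk1 value 2.46 times and its Grik3 value 2.23 times the next highest. The summed adipocyte markers were 92.7, 307 and 771 FPKM at the lowest, median and highest P.T.ATBx library and 61.1, 404 and 3108 FPKM in Control. Simple epithelial markers summed to 13.1 to 60.3 FPKM in P.T.ATBx and 4.31 to 199 in Control. All 8 adipocyte markers were tested, 0 passed, and their median log2 fold change was -0.43. Without Control 3, Slitrk5, Gria4 and Grik2 had log2 fold changes of 0.35, 0.32 and 0.30 (adjusted p = 0.00359, 0.00998 and 0.00831, limma), and Slitrk6 one of 0.30 (adjusted p = 0.0960, limma).

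Levels of 16 members, those at 0 in at most 2 libraries, were set against the adipocyte sum within each group after these values were seen. Of 32 relations, 3 had an adjusted p of r under 0.05. By rho, Gria3 in P.T.ATBx passed as well (rho = 0.82, permutation p = 0.00578, adjusted p = 0.0462). Its r was 0.70 in P.T.ATBx and 0.71 in Control (permutation test, adjusted p = 0.152 in each), and its rho in Control was 0.58 (permutation test, adjusted p = 0.356). Grik3 went up with the adipocyte sum in P.T.ATBx (r = 0.72, permutation p = 0.00302, adjusted p = 0.0322, rho = 0.93, permutation p = 0.000250) and in Control (r = 0.88, permutation p = 7.0e-05, adjusted p = 0.00224, rho = 0.89, permutation p = 0.00129). Without the 2 libraries farthest from the median, r was 0.67 in P.T.ATBx and 0.85 in Control. Gria4 went down with it in Control (r = -0.93, permutation p = 0.000200, adjusted p = 0.00320, rho = -0.90, permutation p = 0.000800, r = -0.84 without the 2 farthest). In P.T.ATBx the relation of Gria4 was r = 0.06 (permutation p = 0.876, rho = -0.03, permutation p = 0.945), and the difference between the groups was not tested. With the adipocyte sum as a covariate, Gria4 had a log2 fold change of 0.32 (adjusted p = 0.00379, limma), Grik2 one of 0.32 (adjusted p = 0.00855, limma) and Slitrk5 one of 0.36 (adjusted p = 0.00272, limma). That fit takes the same slope on the adipocyte sum in both groups, which was not tested.

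**Figure D4:**
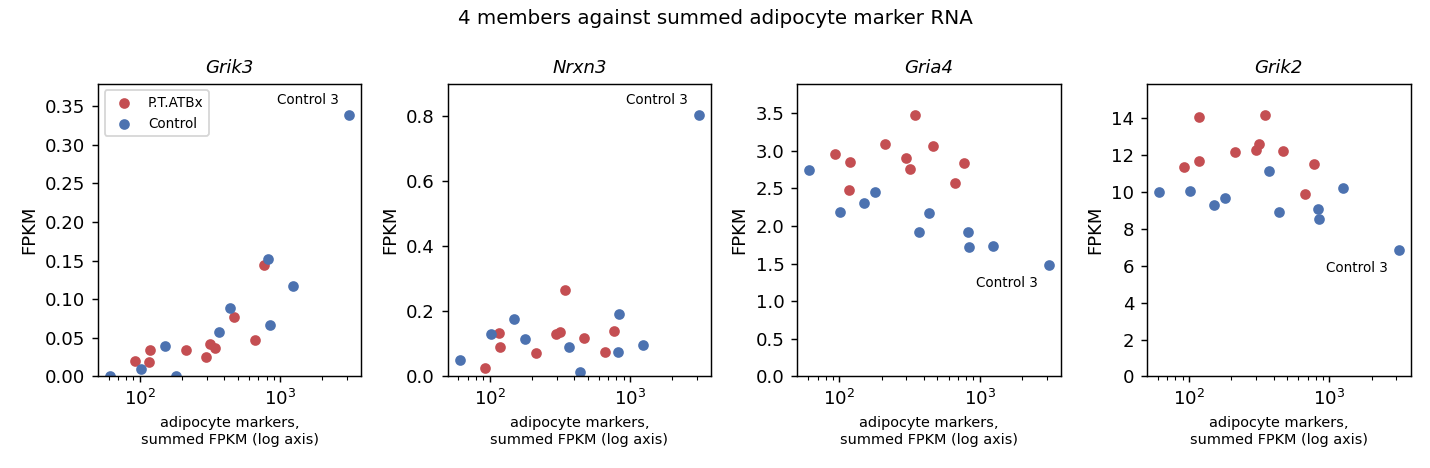
FPKM of Grik3, Nrxn3, Gria4 and Grik2 in each library (y axis) against the summed FPKM of 8 adipocyte markers (x axis, log scale), P.T.ATBx in red and Control in blue. Grik3 climbs with the marker sum in both groups, Gria4 declines with it among Control libraries, and Control 3 is the point at the far right.

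Among the 7 tested members, 21 pairs were compared within each group, 42 relations in all. Of these, 0 reached an adjusted p under 0.05 (permutation test), and 9 relations had an unadjusted p under 0.05. The sign was the same in both groups for 7 of the 21 pairs. Slitrk5 and Slitrk6, which lie on the same chromosome, were among these 7 and did not pass adjustment in either group. They were the only pair with an unadjusted p of r under 0.05 in both groups (permutation test). In P.T.ATBx r was 0.69 (permutation p = 0.0235, adjusted p = 0.141, rho = 0.64, permutation p = 0.0537, r = 0.76 without the 2 farthest libraries). In Control r was 0.65 (permutation p = 0.0416, adjusted p = 0.194, rho = 0.64, permutation p = 0.0539, r = 0.55 without the 2 farthest).

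Genes whose products work with these proteins were grouped in lists. Of 19 tested postsynaptic scaffold and kinase genes 1 was higher and 0 lower, with a median log2 fold change of 0.03. The gene was Lin7c, a PDZ scaffold, at 48.1 ± 4.06 FPKM in P.T.ATBx and 41.5 ± 2.47 FPKM in Control (SD, n = 10 each), and the log2 fold change was 0.21 (adjusted p = 0.0290, limma). Gphn, encoding the inhibitory synapse scaffold gephyrin, had 0.12 (adjusted p = 0.210, limma) and Shank2 -0.15 (adjusted p = 0.250, limma).

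In the list of receptor auxiliary subunits 0 of 8 tested genes passed, with a median log2 fold change of -0.01. Olfm1 had -0.25 (adjusted p = 0.117, limma), Cnih2, which encodes an AMPA receptor chaperone, 0.21 (adjusted p = 0.169, limma) and Porcn 0.07 (adjusted p = 0.708, limma). The kainate receptor partners Neto1 and Neto2, looked at because of Grik2, were below the filter, with Neto2 at 0.124 FPKM in P.T.ATBx and 0.173 in Control.

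Of the 16 tested ligands and partners of the adhesion proteins 0 passed, and the median was -0.02. Lrrc4c, which encodes a netrin-G ligand, came closest, at 1.65 ± 0.232 FPKM in P.T.ATBx and 1.08 ± 0.343 FPKM in Control (SD, n = 10 each), and the log2 fold change was 0.37 (adjusted p = 0.0523, limma). The latrophilin gene Lphn3 had 0.19 (adjusted p = 0.157, limma) and Cadm3 -0.25 (adjusted p = 0.264, limma). Of the phosphatase genes whose products bind SLITRKs, looked at after the SLITRK values were seen, Ptprs was at 21.0 ± 1.79 FPKM in P.T.ATBx and 21.9 ± 2.63 FPKM in Control (SD, n = 10 each, adjusted p = 0.759, limma). Ptprd was under the filter at 0.184 and 0.208 FPKM.

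Of 11 tested genes of glutamate transport and metabolism 0 passed, with a median of -0.06. The transporter genes Slc38a1, Slc1a4 and Slc3a2 had log2 fold changes of -0.13, 0.15 and 0.09 (adjusted p = 0.270, 0.486 and 0.605, limma). Of the 8 metabotropic glutamate receptor genes none reached the filter, and 6 stayed under 0.1 FPKM in every library. The highest was Grm7, named after its values were seen, at 0.346 ± 0.0648 FPKM in P.T.ATBx and 0.252 ± 0.0558 FPKM in Control (SD, n = 10 each).

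Beside the higher members, 1 of 11 tested Schwann cell markers was called, the cadherin gene Cdh19, at 6.51 ± 0.919 FPKM in P.T.ATBx and 4.98 ± 0.821 FPKM in Control (SD, n = 10 each), and the log2 fold change was 0.33 (adjusted p = 0.0480, limma). The other 10 did not pass, 9 of the 11 were negative, and the list median was -0.07, with summed levels of 57.4 to 68.9 FPKM in P.T.ATBx and 60.4 to 87.2 in Control. In the fibroblast and pericyte list the proteoglycan gene Dcn was lower, at 543 ± 39.5 FPKM in P.T.ATBx and 672 ± 40.1 FPKM in Control (SD, n = 10 each, adjusted p = 0.00125, limma), and 10 other tested markers did not pass. The summed fibroblast list was 1065 to 1311 FPKM in P.T.ATBx and 1247 to 1687 in Control. Dcn alone supplied 467 to 614 and 598 to 743 FPKM of these sums. Of the 11 tested markers of this list 8 were negative and 3 positive (Pdgfrb, Fap and Cspg4), with a median log2 fold change of -0.13. Skeletal muscle markers were uneven between libraries, with 1.64, 12.3 and 60.1 FPKM summed at the lowest, median and highest P.T.ATBx library and 1.03, 2.77 and 98.3 FPKM in Control. All 9 tested were positive and 0 passed, and the list median was 0.35 on the log2 scale. The 8 tested T cell and 8 tested simple epithelial markers had medians of -0.19 and -0.28. Of 2 tested melanocyte, 4 neuron, 9 skeletal muscle, 5 keratinocyte, 10 endothelial, 9 macrophage, 8 T cell and 8 simple epithelial markers 0 passed. The part of any of these cell types in the results on the members was not tested.

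**Figure D5:**
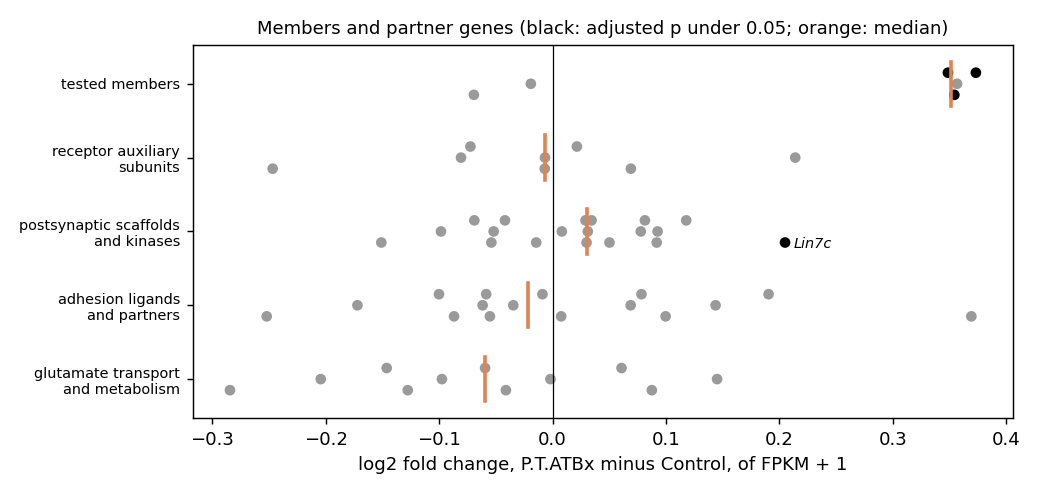
Log2 fold change of log2(FPKM + 1), P.T.ATBx minus Control, of 6 tested members and of the tested genes of 4 partner lists, 1 point per gene, black where the adjusted p was under 0.05, with the list median in orange. The partner medians lie between -0.06 and 0.03, and Lin7c is the black point outside the members.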

How the data were processed

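RNA of MC38 tumours was sequenced as 20 stranded total RNA libraries, per the labels' protocols. The authors deposited 1 table of FPKM per gene and library. The build was mm10, per the submitters' processing notes, with the aligner, quantification tool and strand handling not given in the sources used here. Low FPKM values were whole multiples of what 1 fragment is worth (93.5% of 1871 values within 0.1 of a whole multiple), which gave relative depth and the fragment estimates, where intervals would cover counting error only. Upper quartiles of the libraries differed by 1.05 times at most.

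Rows with a mean of at least 0.5 FPKM over 20 libraries (12788 of 23402) were tested on log2(FPKM + 1) with limma 3.58.1 in R 4.3.3, with group as the only term, robust and trended moderation and Benjamini-Hochberg adjustment. This scale understates changes of low genes. The fit was also tested on simulated data with known changes. Relations used two-sided permutation tests with 100000 resamples (Python 3.11.15). Coordinates and promoters came from RefSeq GRCm38.p6 (35 of 35 members matched) and overlaps from GENCODE M21. The members and gene lists were chosen with earlier results of these data known. Some members and a listed gene are not reported here, though counts over the members include them. Each other member was described, partner lists by their 3 smallest p, and any gene beyond that rule is said to have been looked at later. The alternatives were another pseudocount, 2 filters, 3 scalings, weights, moderation, a replicate block and each library left out. The fits without 4 libraries and with the adipocyte covariate were chosen after seeing the data.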

Additional observations from a re-analysis of the deposited data

Results flagged for a closer look

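A library far from the other 9 of its group was found in 17 of 54 member and group combinations with any spread. Chance flags about 1 in 20 groups of normally distributed values, and low FPKM values need not be distributed so. The rate does not apply to 7 of the 17, where the other 9 libraries were all at 0. Of all 17, 14 concern members with a mean under 0.1 FPKM, so 17 of 54 is not read as an excess. Control 3 gave 3: the highest Nrxn3 (0.802 FPKM, the next 0.192), Grik3 (0.339, the next 0.152) and Slitrk1 (0.217, the next 0.0882). The 17 included 0 of the tested members examined. Control 7 was the highest Control library for Grin2d at 0.435 FPKM, next to 0.299.

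Among P.T.ATBx libraries, replicate 6 had the highest Nrxn3 at 0.265 FPKM, replicate 7 the highest Grik3 at 0.145, and replicate 5 the highest Lrrtm4 at 0.0862.

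In genes with few fragments, the single highest library was far from the rest. For Lrrtm1 it was P.T.ATBx 9 at 0.0775 FPKM and Control 1 at 0.0769. For Grin2a it was P.T.ATBx 9 at 0.0278 and Control 10 at 0.0110, and for Lrrtm3 P.T.ATBx 3 at 0.0147 and Control 10 at 0.0129. Grin2b in P.T.ATBx 1 (0.00819), Grin2c in P.T.ATBx 5 (0.0105), Grik1 in Control 1 (0.0176) and Grik4 in Control 7 (0.0205) were above 0 in that library only.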

How the results depend on the processing

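With every library rescaled to a common FPKM sum, 1 member was called higher in place of 3, Slitrk5, and over all rows 20 genes were higher and 29 lower in place of 59 and 49. Over all rows, 154 were higher and 152 lower with limma's array weights. Leaving out Control 1 made these counts 104 and 89, Control 2 84 and 78, and P.T.ATBx 4 38 and 31. Without the 4 libraries highest in Rpph1 and Rmrp 31 and 36 rows and 2 members (higher) were called. On leaving out each library in turn the count ran from 3 to 4 higher, the 4 being without Control 10, and stayed at 0 lower. The sign of Nlgn2 was reversed without P.T.ATBx 1 (0.0011), Control 2 (0.0018), Control 7 (0.010) and Control 10 (0.0088), and its log2 fold change ran from -0.067 to 0.010 over these fits. The cause was not tested. The other 6 tested members kept their sign in every fit run. Same-numbered libraries deviated together (r over 0.1) in 5 of 10 pairs, from -0.31 to 0.39. Of the P.T.ATBx libraries, 4 of 10 correlated best with their own number. These values do not settle whether the numbers pair the samples. With the replicate number as a block 3 members were higher, with Slitrk5 at an adjusted p of 0.0179, Grik2 at 0.0220 and Gria4 at 0.0321 (limma), and 0 lower. A pseudocount of 0.1 left 0 pairs of members related in both groups. Depth limits the 28 members under the filter, several of which rest on single fragments.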
